A study of Mus musculus with 6 samples.

Results

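The interleukin-6 (IL-6) family genes described here are the ligands Il6, Il11, Osm and Lif, the receptor chains Il6ra, Il6st, Osmr and Lifr, the transcription factor Stat3 and the feedback inhibitor Socs3. They were taken as every probe set whose only annotated gene symbol is 1 of these 10, which gave 24 of the 45037 probe sets tested and 10 of 18193 genes. A probe set is the group of array probes that reads 1 transcript or a few related ones. RNA came from mouse skin on a C57BL/6 background, with 3 wild-type samples and 3 knock-in samples of genotype KA (source KAB6), each on its own Affymetrix array. The labels name neither the altered gene nor the age, sex, body site or any treatment of the mice, and they leave open whether each array stands for its own mouse. What the p-values weigh is thus the spread between these 6 samples, which may be technical.

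Cytokines of this family share the receptor subunit gp130, the product of Il6st. IL-6 binds its own receptor chain, encoded by Il6ra, before joining gp130, while oncostatin M (Osm) and leukaemia inhibitory factor (Lif) pair gp130 with the chains encoded by Osmr and Lifr. The assembled receptors activate JAK kinases, which phosphorylate STAT3, and STAT3 induces Socs3, whose product binds gp130 and shuts the signal down. In skin, oncostatin M acts on keratinocytes, and STAT3 takes part in wound repair and in epidermal inflammation.

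The arrays resembled each other within a group. On the log2 scale, Pearson's r over all probe sets was 0.981 to 0.984 within wild-type, 0.983 to 0.984 within knock-in and 0.949 to 0.963 between the groups. Keratinocyte markers lay at or above percentile 97.7 of the probe sets on every array. Markers of other tissue were bright too, with fibroblast markers at or above percentile 88.8 and skeletal muscle markers at or above 86.5. The groups also differed by sex-linked transcripts. Xist, the RNA of the inactive X chromosome, rose from 29.7 ± 2.44 to 3730 ± 282, and the Y-linked Eif2s3y fell from 687 ± 42.6 to 5.04 ± 0.544 (SD, n = 3 per group). Genotype and sex cannot be told apart in any value below. The 5' control for 18S ribosomal RNA lay between 1314 and 2286 in wild-type and between 166 and 766 in knock-in, and its part in the results was not tested.

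The ligands Il6, Osm and Il11, the receptor Osmr, the transcription factor Stat3 and the inhibitor Socs3 were higher in knock-in skin, and the shared subunit Il6st did not pass the test. Of the 24 probe sets, 11 rose and 0 fell at an adjusted p under 0.05 (limma on log2(signal + 16), Benjamini-Hochberg over all probe sets), and 16 (66.7%) had an unadjusted p under 0.05, against 27.7% of all probe sets. Over the whole array 6.01% of probe sets rose and 7.81% fell. With 1 probe set per gene, that of the highest mean signal, 6 of the 10 genes rose and 0 fell, where 8.48% of all genes rose and 9.05% fell. All knock-in values lay above all wild-type values for 12 of the 24 probe sets, against 13.1% of all probe sets, and the reverse held for 0, against 19.6%. The median log2 difference, knock-in minus wild-type, was 0.62 over the 24 probe sets and -0.05 over all. Of the calls over the whole array 43.5% were higher in knock-in, and 66.2% after each array was centred on its median, which moved the median difference by 0.13. The 24 probe sets then counted 12 higher and 0 lower.

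The sequences upstream of 3 of the genes that rose are shown, for the inhibitor, 1 ligand and 1 receptor, with the letters in them that resemble sites of factors acting in this pathway. Each runs 5' to 3' on the strand of the gene, from 250 bases before the start of the gene to 50 after it, in RefSeq on build GRCm38.p6. Of the 10 genes, 9 had such a sequence in the table. Capitals mark matches on either strand to TTCNNNGAA, the letters that STAT proteins bind, to GGG, any 2 bases and TTTCC, a form of the NF-kB site, or to TGANTCA, a form of the AP-1 site.

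Socs3, chr11:117969317-117969616, minus strand: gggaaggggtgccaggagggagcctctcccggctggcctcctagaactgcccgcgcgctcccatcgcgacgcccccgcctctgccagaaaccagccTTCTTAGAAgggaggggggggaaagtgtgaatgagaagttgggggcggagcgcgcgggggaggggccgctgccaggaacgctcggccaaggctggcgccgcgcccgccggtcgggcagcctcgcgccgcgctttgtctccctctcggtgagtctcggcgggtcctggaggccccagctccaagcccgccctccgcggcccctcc

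Il6, chr5:30012864-30013163, plus strand: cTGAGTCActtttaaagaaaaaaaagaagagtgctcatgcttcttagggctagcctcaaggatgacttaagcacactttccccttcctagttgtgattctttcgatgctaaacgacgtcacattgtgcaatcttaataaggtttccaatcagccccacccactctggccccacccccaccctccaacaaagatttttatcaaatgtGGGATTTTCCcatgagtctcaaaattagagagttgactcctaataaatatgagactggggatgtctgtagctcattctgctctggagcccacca

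Osmr, chr15:6874264-6874563, minus strand: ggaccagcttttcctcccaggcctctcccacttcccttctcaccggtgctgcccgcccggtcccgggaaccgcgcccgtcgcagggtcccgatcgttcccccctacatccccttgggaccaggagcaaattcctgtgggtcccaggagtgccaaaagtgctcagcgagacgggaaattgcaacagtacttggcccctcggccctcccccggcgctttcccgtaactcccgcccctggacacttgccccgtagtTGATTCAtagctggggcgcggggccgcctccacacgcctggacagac

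The Socs3 sequence has TTCTTAGAA at positions -154 to -146 from the start. This was the only STAT-type match among the sequences of the 9 genes, and 8.30% of the 32851 promoter sequences of this length hold one. Il6 has GGGATTTTCC at -44 to -35, a match found in 1.63% of promoters, and TGAGTCA at -249 to -243. Osmr has TGATTCA from base 4 to base 10 after its start, and 7.81% of promoters have a match of that AP-1 type. In all, 4 of the 9 genes had an AP-1-type match: Il6, Osmr, Il11 (TGAGTCA at -98 to -92), which rose, and Lif (TGACTCA at -228 to -222), which did not pass the test. Matches thus did not go only with genes that rose, and Stat3 rose without a match of any of the 3 types. The 9 genes had 11 sequences, so a count per gene is not on the same footing as a share of promoters. A match describes letters and does not show that a factor binds there.

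Among the ligands, Il6, the cytokine that gives the family its name, had the largest difference of the 24 probe sets. Its signal (1450297_at) was 1.27, 5.76 and 7.07 on the wild-type arrays and 365, 202 and 231 on the knock-in arrays. Every knock-in value was far above every wild-type value, and the groups did not overlap. The wild-type values lay between percentiles 5.08 and 15.9 of their arrays, where a signal cannot be told from background, and the knock-in values between 78.6 and 87.3. The log2 difference was 3.74 ± 0.23 (SE, adjusted p = 6.35e-05). Since the wild-type signal is below the offset of 16, this value depends on the offset, with 5.69 at an offset of 1 and 2.23 at 64.

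Osm, the ligand of macrophages, neutrophils and T cells that acts through Osmr, was read by a single probe set (1438767_at). Its signal was 18.2, 15.1 and 23.2 in wild-type and 103, 92.9 and 100 in knock-in. The knock-in values lay close together and clear of the wild-type values, with a log2 difference of 1.72 ± 0.16 (adjusted p = 0.000471). At an offset of 1 the difference was 2.35 and at 64 it was 0.97.

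Il11, a ligand made by stromal cells, followed at a lower signal (1449982_at), with 5.89, 13.9 and 4.23 in wild-type and 55.0, 33.4 and 63.8 in knock-in. The groups did not overlap, but the knock-in values reached only percentiles 47.4 to 59.6 of their arrays. The log2 difference was 1.47 ± 0.24 (adjusted p = 0.00575), or 2.62 and 0.67 at offsets of 1 and 64.

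Lif, which signals through Lifr and gp130, had 2 dim probe sets, and neither passed. The brighter (1421207_at) gave 23.7, 42.6 and 32.3 in wild-type and 26.8, 25.8 and 31.2 in knock-in. The knock-in values fell inside the wild-type range, and the 95% interval of the log2 difference ran from -0.57 to 0.30. The other (1450160_at) gave 3.47, 2.60 and 5.29 in wild-type against 4.06, 14.8 and 21.3 in knock-in, where knock-in replicates 2 and 3 lay above all wild-type values and replicate 1 among them. Its log2 difference of 0.53 ± 0.22 had an adjusted p of 0.164, and 0.0311 without knock-in replicate 1. In bulk skin RNA more cells of a type that makes a ligand and more RNA per cell cannot be told apart, for these ligands or for any gene below.

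**Figure D1:**
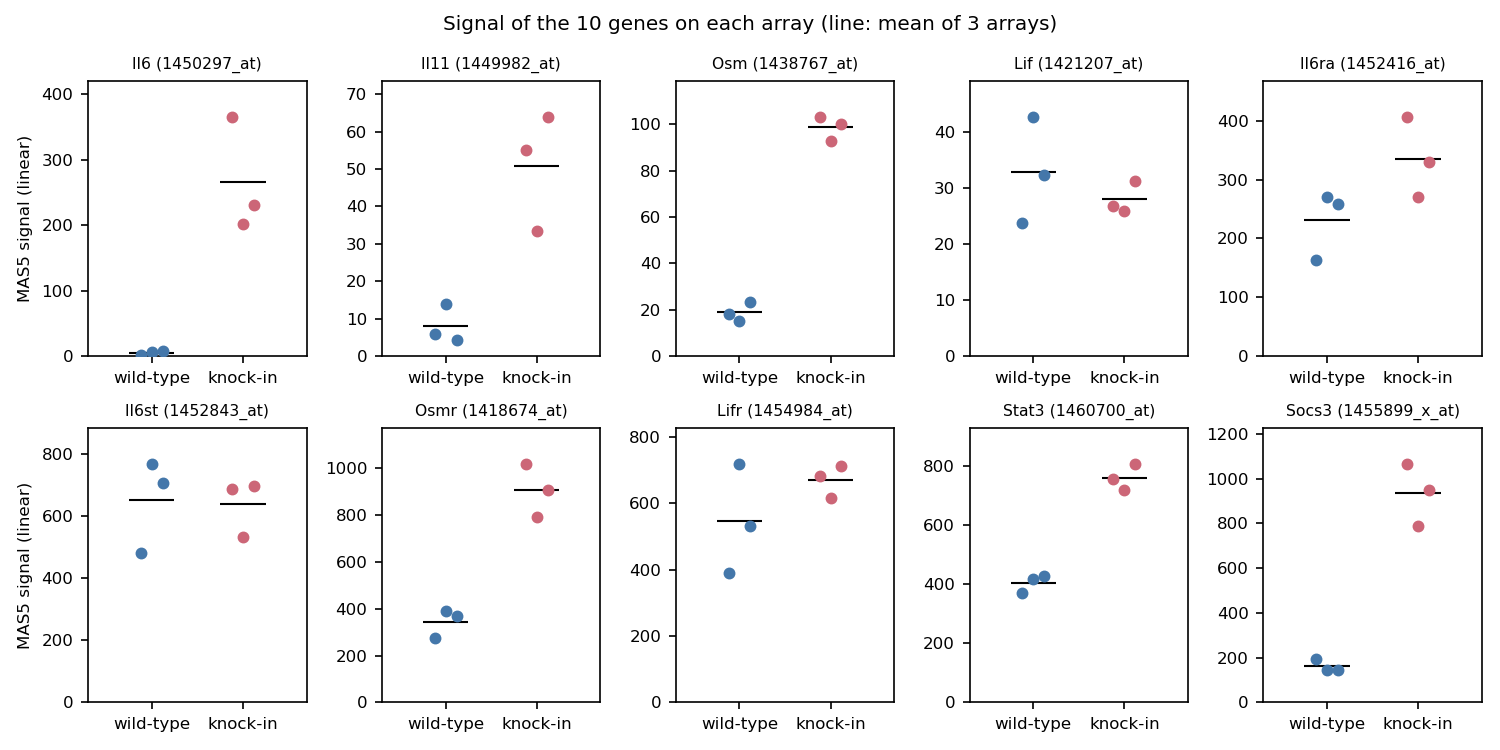
MAS5 signal (vertical axes, linear, from 0, each panel on its own scale) on the 3 wild-type and 3 knock-in arrays for the probe set of highest mean of each gene; points are arrays and lines are means. Il6, Il11, Osm, Osmr, Stat3 and Socs3 do not overlap between the groups, while Lif, Il6ra, Il6st and Lifr do.

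Among the receptors, Osmr, the oncostatin M chain that pairs with gp130, rose on 2 of its 3 probe sets. The brightest (1418674_at) read 276, 391 and 367 in wild-type and 1019, 790 and 908 in knock-in. All knock-in values were above the highest wild-type value by a wide margin, and the ratio of the means was 2.63. The log2 difference was 1.36 ± 0.14 (adjusted p = 0.000841).

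The second Osmr probe set (1418675_at) read 45.7, 47.8 and 52.0 in wild-type and 109, 96.2 and 101 in knock-in, again without overlap. Its log2 difference was 0.87 ± 0.13 (adjusted p = 0.00422). The third (1459217_at) was near background, with 4.67 to 12.6 in wild-type and 14.5 to 19.9 in knock-in. It did not overlap between the groups but did not pass (0.43 ± 0.17, adjusted p = 0.144).

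Il6st, which encodes the subunit common to all these cytokines, had 4 probe sets, and none passed. The brightest (1452843_at) read 479, 767 and 706 in wild-type and 687, 533 and 695 in knock-in. The groups overlapped over most of their range, the log2 difference was -0.01 ± 0.18 and its 95% interval ran from -0.42 to 0.40. The other 3 had differences of -0.10, 0.07 and -0.34, with adjusted p from 0.388 to 0.824. These 4 intervals together span -0.86 to 0.44.

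Il6ra, the chain that binds IL-6 itself, was read by 2 probe sets with similar differences. The brighter (1452416_at) read 163, 271 and 258 in wild-type and 406, 270 and 330 in knock-in. Knock-in replicate 2 lay just below wild-type replicate 2, so the groups overlapped by that pair. The log2 difference was 0.53 ± 0.20 (95% interval 0.06 to 0.99, adjusted p = 0.134), and it passed only after median centring, with 0.66 and an adjusted p of 0.0407, in a range of adjusted p from 0.0407 to 0.336 over 16 alternatives. The second probe set (1422270_a_at) had a log2 difference of 0.51 ± 0.19 (adjusted p = 0.116).

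The probe sets of Lifr, the chain shared by leukaemia inhibitory factor and oncostatin M, disagreed. The brightest (1454984_at) read 390, 719 and 531 in wild-type and 682, 617 and 711 in knock-in, which overlapped, and its log2 difference of 0.32 ± 0.19 did not pass (adjusted p = 0.315). The probe set 1425107_a_at, whose suffix marks probes common to several transcripts of 1 gene, read 45.7, 53.9 and 38.8 in wild-type and 130, 123 and 159 in knock-in. It did not overlap and rose by 1.30 ± 0.16 (adjusted p = 0.00144). The third (1450207_at) stayed near background in both groups, between 7.96 and 21.7.

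A comparison of the 2 brighter Lifr probe sets within each array was added after these values were seen. Their log2 ratio was -3.14 ± 0.37 in wild-type and -2.17 ± 0.10 in knock-in (SD, n = 3). The ratios did not overlap and differed by 0.98. Since the pair was chosen for its disagreement, this is a description with no test, and no transcript form was assigned to either probe set.

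Receptor chains were also compared with each other inside each array, for 3 pairs. The zero of such a ratio has no meaning, since probes differ in brightness. Its change between the groups measures unequal change of the 2 probe sets used, those of highest mean for each gene. It need not be a difference between genes, since the ratio of the 2 brighter Lifr probe sets changed by 0.98. The log2 ratio of Osmr to Il6st was -0.87 ± 0.10 in wild-type and 0.50 ± 0.10 in knock-in, a difference of 1.37. That of Osmr to Lifr went from -0.61 ± 0.21 to 0.42 ± 0.13, a difference of 1.03, which was 0.32 with the mean over all probe sets of each gene. For Il6ra to Il6st the values were -1.44 ± 0.04 and -0.90 ± 0.15, a difference of 0.54. None of the 3 ratios overlapped between the groups, and each had an exact permutation p of 0.1, also after adjustment over the 3. That is the smallest p that 3 against 3 arrays can give, and any ratio without overlap gets it. The test thus could not pass 0.05 and adds nothing to the lack of overlap.

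**Figure D2:**
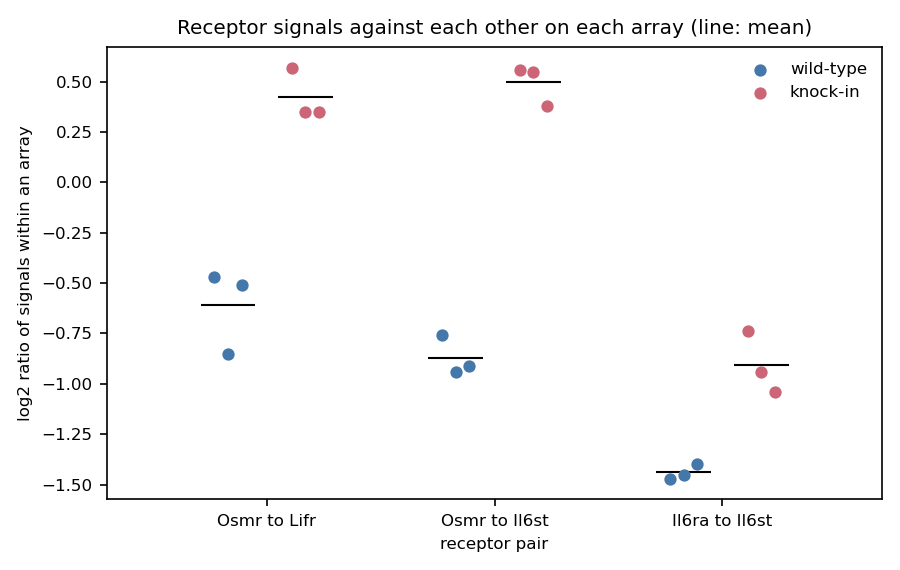
Log2 ratio of the signals of 2 receptor genes within 1 array (vertical axis) for 3 pairs, with wild-type arrays in blue and knock-in arrays in red; points are arrays and lines are means of 3. In each pair all knock-in points lie above all wild-type points, by 1.03, 1.37 and 0.54 on average.

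Stat3, the transcription factor on which these receptors converge, rose on its 2 bright probe sets. The first (1460700_at) read 371, 418 and 430 in wild-type and 756, 721 and 809 in knock-in. The groups were well apart and tight, with a ratio of means of 1.87 and a log2 difference of 0.88 ± 0.09 (adjusted p = 0.000757). The other (1426587_a_at) read 373, 430 and 416 against 780, 700 and 635, a log2 difference of 0.77 ± 0.10 (adjusted p = 0.00249). The 2 dim probe sets overlapped between the groups and did not pass. Of these, 1459961_a_at had a difference of 0.15 ± 0.18. The other, 1424272_at, had 0.72 ± 0.31, with 102 on knock-in replicate 1 against 33.3 and 56.0 on the other two.

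Socs3, the inhibitor that STAT3 induces and that blocks gp130, rose on all 3 of its probe sets. The unshared one (1416576_at) read 92.3, 97.1 and 93.5 in wild-type and 569, 388 and 484 in knock-in. The wild-type values were nearly equal and the lowest knock-in value was far above them, with a ratio of means of 5.09. The log2 difference was 2.15 ± 0.14 (adjusted p = 7.57e-05). The other two end in _x_at, which marks probes that may also read related sequences. Of these, 1455899_x_at read 194, 145 and 147 against 1066, 789 and 949, with a difference of 2.42 ± 0.14 (adjusted p = 5.28e-05). The probe set 1456212_x_at had the smallest difference of the 3, at 1.60 ± 0.16 (adjusted p = 0.000717), and did not overlap either.

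**Figure D3:**
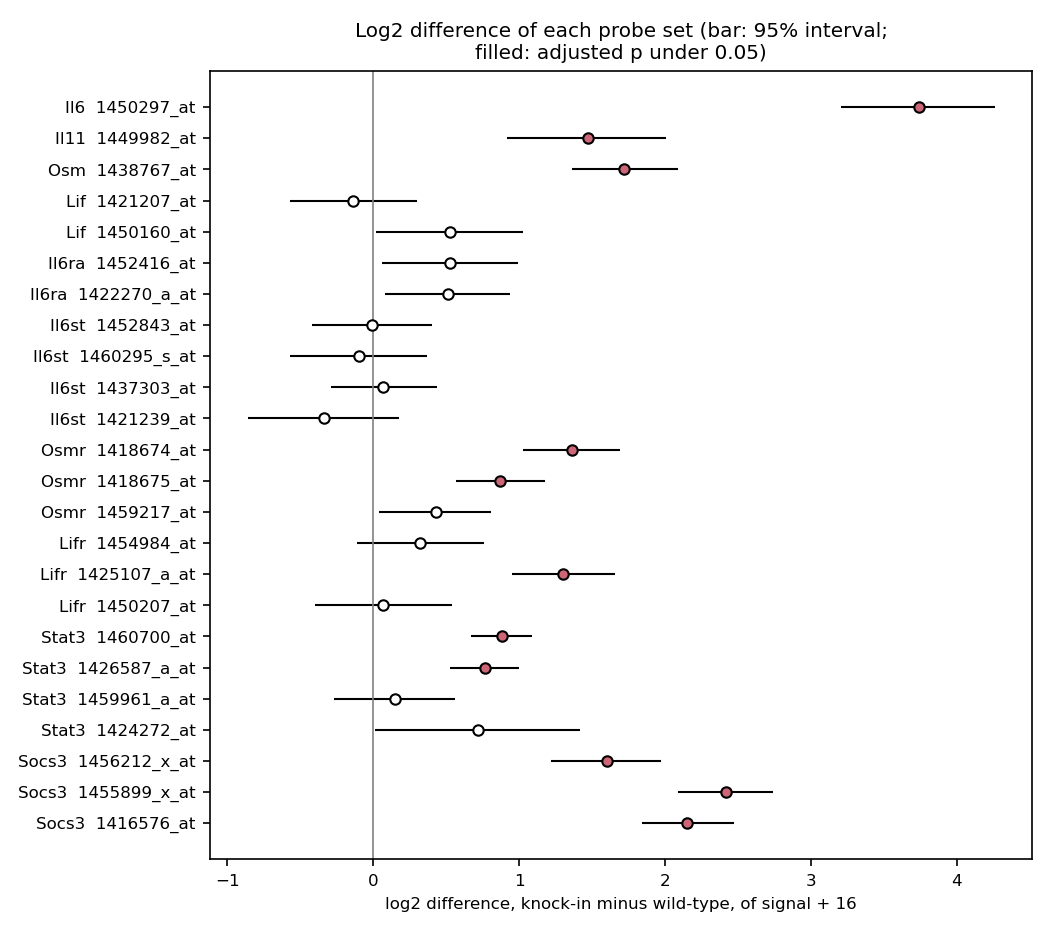
Log2 difference, knock-in minus wild-type, of signal + 16 (horizontal axis) for each of the 24 probe sets; bars are 95% intervals of the limma fit, and filled points have an adjusted p under 0.05. The 11 filled points run from 0.77 for Stat3 1426587_a_at to 3.74 for Il6, and the 4 Il6st points lie around 0.

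The calls held across the alternatives, with some points of variation between arrays. Each of the 11 probe sets that rose also rose with each array left out in turn. The lowest knock-in value belonged to replicate 2 for 20 of the 24 probe sets (83.3%), where it was the lowest for 35.8% of all probe sets. In wild-type, replicate 1 was lowest for 15 of 24 (62.5%), against 40.6% of all. For Il6, knock-in replicate 1 stood 4.21 above the wild-type mean on the log2(signal + 16) scale and replicates 2 and 3 stood 3.41 and 3.59 above it. For Socs3 1455899_x_at the values in the same order were 2.61, 2.19 and 2.45, and for Osmr 1418674_at they were 1.53, 1.17 and 1.37. Knock-in replicate 2 was thus the lowest of its group for a ligand, a receptor and the inhibitor, and without it 11 probe sets still rose.

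**Figure D4:**
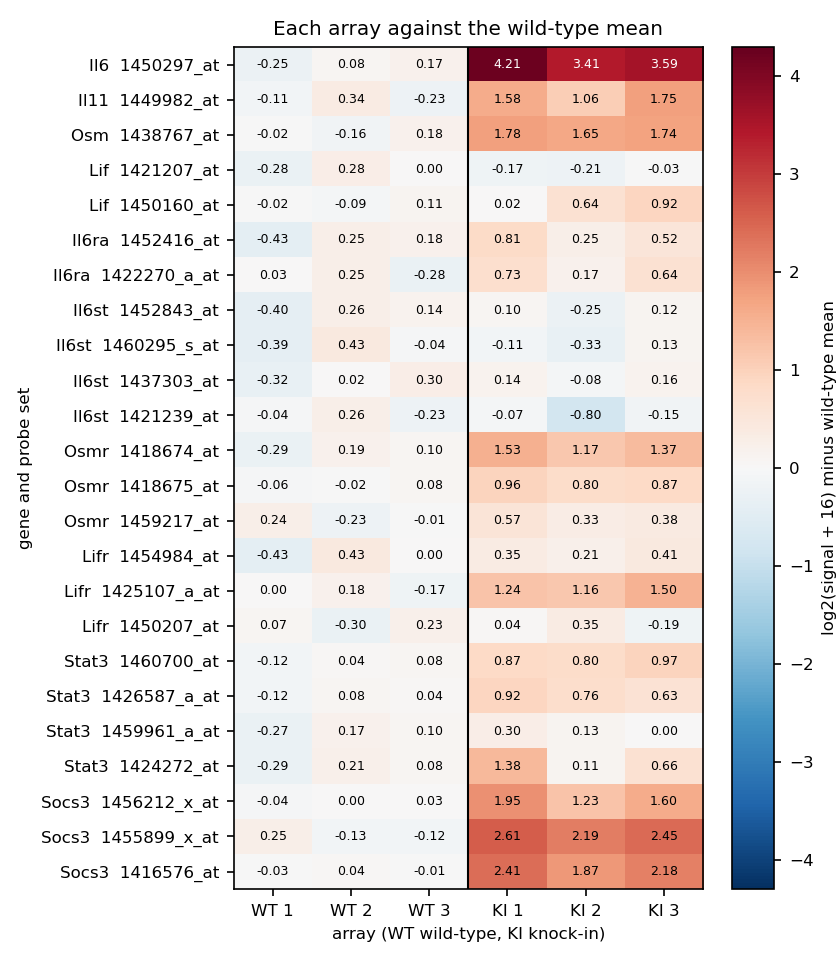
Log2(signal + 16) of each of the 24 probe sets (rows) on each array (columns, WT wild-type, KI knock-in) minus the wild-type mean of that probe set, printed in each cell and coloured from blue (lower) to red (higher). Il6 reaches 4.21 on knock-in replicate 1, and knock-in replicate 2 is the lowest knock-in column in 20 of the 24 rows.

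Few of the other ligands and receptors of the pathway passed the test, as was so for genes over the whole array. With 1 probe set per gene, 8.48% of all genes rose and 9.05% fell. Of 4 measured ligands and soluble partners 0 rose and 1 fell, and of 5 receptors and receptor-cutting proteases 0 rose and 0 fell (2 of these 5 had an unadjusted p under 0.05, as did 32.3% of all genes). Ebi3, a subunit of IL-27, went from 43.5 ± 3.07 to 17.9 ± 8.73 and had a log2 difference of -0.84 ± 0.21 (adjusted p = 0.0341). It did not pass without any 1 wild-type array, without knock-in replicate 2 or without knock-in replicate 3 (adjusted p 0.0699 to 0.108). Adam17, a protease that sheds the IL-6 receptor, had 343 ± 27.1 and 440 ± 47.3, and its difference of 0.34 ± 0.11 did not pass (adjusted p = 0.0729). It passed after median centring (0.47, adjusted p = 0.0235), with the filter on dim probe sets (0.0482, and 0.0455 with 1 probe set per gene) and without knock-in replicate 2 (0.0478). Adam10, the other protease of the list, went the other way, with 1320 ± 138 and 1134 ± 29.8. All its knock-in values lay below all wild-type values, but its difference of -0.21 ± 0.09 did not pass (adjusted p = 0.186). Ctf1, encoding cardiotrophin-1, had 113 ± 3.14 and 86.2 ± 0.787 (adjusted p = 0.0878), and Il31ra, a chain that pairs with the Osmr product to bind IL-31, had 86.7 ± 34.3 and 45.8 ± 5.23 (adjusted p = 0.134, and 0.0102 without wild-type replicate 1).

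Among 12 JAK kinases, adaptors and other STATs, 1 rose and 1 fell, near the shares of all genes (8.48% and 9.05%). Their median log2 difference was 0.04, against -0.02 over all genes with 1 probe set each. Jak3, the kinase of the common gamma chain, had a difference of 0.64 ± 0.17 (adjusted p = 0.0439), and Gab1, an adaptor of gp130 and growth factor receptors, one of -0.53 ± 0.12 (adjusted p = 0.0210). Jak3 passed with 1 array left out only without wild-type replicate 2, and the adjusted p was otherwise 0.0667 to 0.143. Gab1 was lost when wild-type replicate 1, wild-type replicate 3, knock-in replicate 1 or knock-in replicate 3 was left out (0.0580 to 0.0831), and after median centring (0.0734).

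Of 14 negative regulators other than Socs3, 1 rose and 1 fell, again near the shares of all genes. Socs2, a regulator of growth hormone signals, rose from 148 ± 25.4 to 311 ± 34.3, by 1.00 ± 0.14 (adjusted p = 0.00263). Cish, a target of STAT5, fell from 189 ± 15.8 to 121 ± 9.18 (-0.59 ± 0.11, adjusted p = 0.0114, and 0.0535 without wild-type replicate 3). Socs4 had a difference of -0.37 ± 0.10 (adjusted p = 0.0506). After median centring 4 of the 14 were higher and 1 lower.

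Known targets of STAT3 rose in 16 of 27 cases, 2 fell and 9 did not pass, with a median log2 difference of 0.68. Among all genes 8.48% rose and 9.05% fell, with a median of -0.02. The list was chosen with earlier results of these data known, so its count and median describe the list and test nothing. Without 1 array at a time 13 to 16 rose and 1 to 2 fell. Many of these genes are also targets of NF-kB, C/EBP or AP-1 factors. By the smallest p they were led by Saa3, an acute-phase protein, from 79.9 ± 8.62 to 9082 ± 2251 (log2 difference 6.54 ± 0.18, adjusted p = 7.83e-07), and Lcn2, which binds bacterial siderophores, at 5.97 ± 0.26. Fos, a subunit of AP-1, rose from 284 ± 42.7 to 1195 ± 175 (2.01 ± 0.14). Others named after their values were seen were the protease inhibitor Timp1 (4.49 ± 0.34), the lectin Reg3g (2.47 ± 0.19), the interleukin-4 receptor chain Il4ra (1.57 ± 0.12) and the IkB family member Bcl3 (1.26 ± 0.17). The 2 that fell, likewise named after their values were seen, were the cell cycle gene Ccnd1 (from 960 ± 149 to 446 ± 90.5, adjusted p = 0.00343) and Hamp (-0.74 ± 0.17, adjusted p = 0.0241). The 9 that did not pass were Bcl6, Cebpb, Myc, Bcl2l1, Pim1, Icam1, Batf, Zfp36 and Fgb, with log2 differences from -0.16 for Fgb to 0.68 for Batf. Among them the kinase Pim1 had -0.01, the repressor Bcl6 0.05, the survival gene Bcl2l1 0.24 and the growth regulator Myc 0.31. The survival gene Mcl1 counted among the 16 (0.38, adjusted p = 0.0365), but it did not pass once any 1 array was left out (0.0515 to 0.124) or after quantile normalization (0.0620). Hamp was lost when any 1 array other than wild-type replicate 1 and knock-in replicate 2 was left out (0.0551 to 0.0866).

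Of 15 other genes for cytokines that signal through STAT3 and for their receptors, with 1 soluble decoy among them, 4 rose and 0 fell. The shares of all genes were 8.48% and 9.05%. Csf3r, the granulocyte colony-stimulating factor receptor of neutrophils, rose from 30.5 ± 3.01 to 184 ± 60.1 (2.07 ± 0.21, adjusted p = 0.000647). Its ligand Csf3 had 12.8 ± 13.6 in wild-type and 101 ± 9.16 in knock-in (2.11 ± 0.29, adjusted p = 0.00296). Il24, a cytokine of keratinocytes, rose from 16.1 ± 1.14 to 186 ± 92.9 (2.54 ± 0.31, adjusted p = 0.00152), and the fourth was Il22ra2, a soluble decoy for IL-22 (2.07 ± 0.37, adjusted p = 0.00831).

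**Figure D5:**
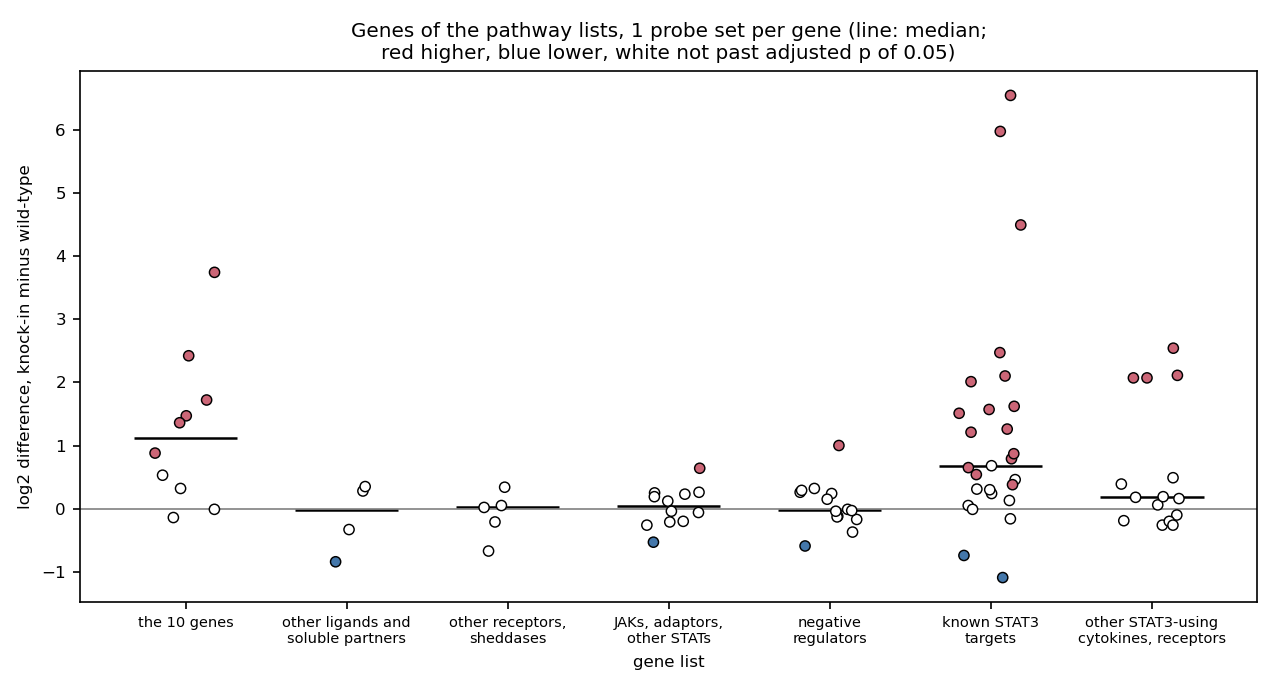
Log2 difference, knock-in minus wild-type, of signal + 16 (vertical axis) for genes of 7 lists (horizontal axis), 1 probe set per gene; red points rose, blue points fell and white points did not pass an adjusted p of 0.05, and lines are medians. The medians are 1.12 for the 10 genes, 0.68 for the STAT3 targets and between -0.03 and 0.18 for the other lists. The lists were chosen with earlier results of these data known.

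Some markers of cell types that make or receive these cytokines differed between the groups, in both directions. For comparison, 8.48% of all genes rose and 9.05% fell. Of 8 measured neutrophil markers 7 rose and 0 fell, and their summed signal was 621 to 861 in wild-type and 15674 to 19938 in knock-in. Most of the knock-in sum came from S100a8 (478 ± 105 to 9374 ± 1091) and S100a9 (101 ± 28.5 to 6055 ± 814), which are calprotectin subunits. The sum thus mostly reads these 2 genes and does not measure the number of neutrophils. Stfa2l1 reached 1316 ± 31.9, the receptor Cxcr2 76.2 ± 35.5 (2.85 ± 1.17 in wild-type) and Ngp and Camp 100 ± 33.8 and 46.4 ± 6.70. The granule gene Ltf, with 18.5 ± 14.8 and 21.5 ± 10.7, did not pass. Of 8 macrophage and monocyte markers 4 rose and 0 fell (2 without wild-type replicate 3 or without knock-in replicate 1 or 3), with sums of 6091 to 9156 and 10628 to 16622. Cd14 rose by 4.20 ± 0.23, Itgam by 2.23 ± 0.38 and Mrc1 by 1.04 ± 0.21, while the lineage-defining Csf1r (0.07 ± 0.20) and Adgre1 (0.14 ± 0.24) did not pass. Of 7 mast cell markers 4 rose, and of 6 endothelial markers 5 rose (3 without knock-in replicate 3). Of 6 T cell markers 0 rose and 2 fell, with sums of 234 to 271 and 97.2 to 149, and Cd3g had a difference of -1.66 ± 0.19. No marker was listed at a signal of 0. The part of these cell types in the values of Il6, Osm, Il11, Osmr, Stat3 and Socs3 was not tested.

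Markers of the resident tissue gave calls in both directions. Among 8 keratinocyte markers 2 rose (Krt14 by 0.73 ± 0.11 and Krt5 by 0.52 ± 0.10) and 1 fell (Krt15, -1.17 ± 0.17), with sums of 49114 to 57349 and 51279 to 64531. Of 6 fibroblast markers 1 rose (Pdgfra, 1.44 ± 0.11) and 1 fell (Col1a1, -0.52 ± 0.14). Col1a1 passed with 1 array left out only without wild-type replicate 1. Of 6 skeletal muscle markers 4 fell and 2 did not pass, with sums of 29404 to 46490 in wild-type and 16065 to 25513 in knock-in. Among those that fell, Pvalb had -3.40 ± 0.22 and Myh4 -1.75 ± 0.19. The part of this muscle RNA in the values of the 10 genes was not tested. Of 5 melanocyte markers 4 fell (2 without knock-in replicate 1 or 3), and of 3 adipocyte markers 0 passed.

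The genes whose pattern over the 6 arrays was most like that of Il6, by Pearson's r on log2(signal + 16), were Kirrel, Gcnt2, Zfp804a, Gda and Nfatc4, with r from 0.9966 to 0.9994. For Osmr they were Lamtor3, Serinc3, Htra3, Tgfbr1 and Rpl35 (0.9976 to 0.9991), and for Socs3 they were Bola2, Khdrbs1, Ier3, Slc10a6 and Ltb4r1 (0.9985 to 0.9996). Such values mostly reflect the difference between the groups, which all 6 arrays share. Pearson's r ignores the size of that difference, which ran from 0.02 for Khdrbs1 to 1.72 for Ltb4r1 among these genes (log2, knock-in minus wild-type). For Il6, 2075 of 34921 other probe sets had r above 0.9.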

How the data were processed

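Skin RNA from 6 mouse samples was read on single-channel Affymetrix arrays, 1 array per sample. Per the submitters' processing notes the authors made the deposited intensity values with MAS5, on a linear scale; its version is not given in the sources used here. The trimmed mean was 150.0 on every array, so values were used as deposited. MAS5 subtracts a mismatch-based background and the table has no detection calls, so dim values carry no order.

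Groups came from the sample titles. After leaving out 64 control probe sets, log2(signal + 16) was fitted for 45037 probe sets with limma 3.58.1 in R 4.3.3 (lmFit, eBayes with a trend, two-sided), with Benjamini-Hochberg adjustment over all and a threshold of 0.05. No filter on dim probe sets was used, so that each member was tested; 18 of 24 would pass one. Errors of signals are SDs and of log2 differences SEs (median SE 0.17); the number of arrays limits the precision. Symbols are those of the platform annotation, where 34945 probe sets have 1 symbol. By rule the text names each member, up to 3 genes per other list by smallest p, and the 5 genes most like Il6, Osmr and Socs3. Outside the rule, chosen after their values were seen, are Il22ra2, the STAT3 targets beyond Saa3, Lcn2 and Fos, and the markers Cxcr2, Ngp, Camp, Ltf, Csf1r and Adgre1. The members and lists were chosen with earlier results of these data known. The fit was tested on simulated arrays for this comparison with 45037 probe sets. Changes were planted in 200 probe sets with a mean signal above 64, far fewer than were called in the data. The fit recovered 26.0% of changes of 0.5, 94.0% of 1 and 100% of 2 on the log2 scale, with 5.33% of calls false. These shares do not cover dim probe sets such as those of Lif and Il11. Alternatives were other offsets, filters, normalizations, variance priors, weights, a replicate block and leaving out each array.

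The same-numbered wild-type and knock-in arrays did not deviate together (correlations of -0.13, -0.15 and -0.01). With so few arrays per group, these correlations cannot decide whether the numbers pair the samples.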

Additional observations from a re-analysis of the deposited data

How the results depend on the processing

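For the 24 probe sets of the 10 genes, 342 of the values under the alternatives kept direction and side of the threshold, 2 newly passed, 0 were lost and 11 turned direction. The count that rose was 11 in most settings and 12 after median centring or without knock-in replicate 1. It was 10 of 18 after the filter on dim probe sets and 5 of 8 with that filter and 1 probe set per gene. Without probe sets shared between transcripts it was 7 of 17. These last counts rest on fewer probe sets tested. Il6 and Osm pass the filter only through the knock-in arrays, where they are high, so the filtered counts are no independent check. The replicate block gave 11 higher and 0 lower. The values that turned direction were all of probe sets that passed nowhere among these settings. Lif 1421207_at ranged from -0.28 to 0.00 with an array left out. Il6st 1452843_at was 0.12 after median centring and from -0.21 to 0.12 with an array left out. Il6st 1460295_s_at was 0.03 after median centring and from -0.29 to 0.11 with an array left out. Il6st 1437303_at ranged from -0.09 to 0.22 and Lifr 1450207_at from -0.08 to 0.20. Probe sets over the whole array that rose numbered 2705 in the main setting, 1729 after the filter with 1 probe set per gene, 4103 after median centring, 1612 with the replicate block and 1803 without shared probe sets. Those that fell numbered 3519, and 1908, 2097 and 1794 in the first 3 of these settings. With an array left out 1561 to 2303 rose and 1608 to 2836 fell; the count that rose moved by over 1.5 times without wild-type replicate 3 (1561), knock-in replicate 1 (1633) or knock-in replicate 3 (1612), each with fewer arrays, as did the count that fell (1608, 2054 and 1818). The difference in the Osmr to Lifr ratio was 1.03, or 0.32 with the mean over probe sets. That mean takes in log2 differences of 1.36, 0.87 and 0.43 for Osmr and of 0.32, 1.30 and 0.07 for Lifr. Dim signals limit Lif, Il11 and wild-type Il6.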
